A study of Mus musculus with 6 samples.

Results

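In 3 clonal mouse B cell lines, 69 of 7495 autosomal genes with enough allele-specific counts were read almost entirely from the maternal allele in every line, which is 0.921% of the genes covered. The genes were chosen from the allelic counts themselves. A gene had to lie on an autosome other than chromosomes 4 and 10, to have at least 20 allelic counts, maternal plus paternal, in each of 6 libraries, and to have a mean maternal share of at least 0.9 in all 3 lines. The maternal share is the maternal count divided by the sum of maternal and paternal counts, averaged over the 2 libraries of a line. Because the shares chose the genes, they are given here as a description and no test of maternal against paternal counts was made.

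Abl.2, Abl.3 and Abl.4 are immortalised B cell clones of a 129S1/SvImJ x CAST/EiJ F1 background, so each line carries 1 genome of a laboratory strain and 1 of a wild-derived strain, and sequence differences between them tell the alleles apart. The labels do not state which strain was the mother, so the maternal allele is not assigned to a strain here. By their labels, Abl.3 is male and the others female. All libraries were made from control cells, grown in medium with 1% DMSO and collected on day 2, and each line is a single clone with 2 library preparation replicates. The replicates therefore measure the spread between libraries, which may be technical, and not the spread between animals or clones. Every line has the same strain background, so an effect of the parent of origin and an effect of the strain sequence cannot be told apart in these samples.

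Most autosomal genes in a diploid cell are transcribed from both copies. Imprinted genes are transcribed from 1 parental copy that is set by marks laid down in the germ line, clonal monoallelic genes differ between clones in the copy they use, and genes with a sequence difference in a regulatory element favour the same strain's copy in every clone. The genes described here have the same high allele in every clone, and the members include regulators such as Nfatc3 and Arntl, interferon-inducible defence genes, membrane enzymes and transporters, and near-identical copies of histone and housekeeping genes.

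The libraries held 18362319 to 26881211 allelic counts, with a median of 874 to 1327 per covered gene. Over all covered genes the maternal share had a median of 0.501, 0.496 and 0.502 in Abl.2, Abl.3 and Abl.4. All 10 B lineage marker genes were above 1 TPM, a measure of transcript abundance corrected for gene length and library depth, in every library, with a summed abundance of 15314 to 18458 TPM. T cell markers summed to 1.25 to 2.41 TPM and erythroid markers to 0.17 to 0.97 TPM, with 3 genes of each list at 0 in all libraries. The T cell gene Lck was at 1.25 to 2.34 TPM. Myeloid markers summed to 80.5 to 196 TPM, of which Lyz2, the lysozyme gene, made up 70.8 to 193 TPM. Cd68 was at 2.44 to 6.02 TPM, and Itgam was at 6.89 and 6.74 TPM in Abl.4 and under 1 TPM in the other lines. Adgre1, a defining macrophage marker, was at 0 in every library, Csf1r was at most 0.3 TPM and Mpo at most 0.81 TPM.

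Among the 69 genes, 22 had a maternal share of at least 0.99 in all 3 lines and 50 had at least 0.95. In each single library, 63 genes were at 0.9 or more. The rule averaged these same library shares, so this count is not separate support for the choice. Replicate libraries differed in share by a median of 0.00524 and by at most 0.147. The line shares of 43 genes spanned less than 0.02, and those of 8 genes spanned more than 0.05. Line shares listed below without their libraries are means of 2 libraries in the order Abl.2, Abl.3, Abl.4. Precision was limited by counts: the total over the 6 libraries had a median of 1657 and ran from 162 for Elobl to 102607 for Hist1h2ac, and 29 genes had under 100 counts in at least 1 library. The choice was also made on 1 library per line and read in the other, which covers the spread between library preparations of a clone only. Of 76 genes chosen on replicate 2 alone, 68 were covered in replicate 1 and 63 of these were again at 0.9 or more in all lines, and all 68 at 0.8 or more. Of 77 chosen on replicate 1 alone, 73 were covered in replicate 2, of which 63 were again at 0.9 or more and 71 at 0.8 or more.

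**Figure D1:**
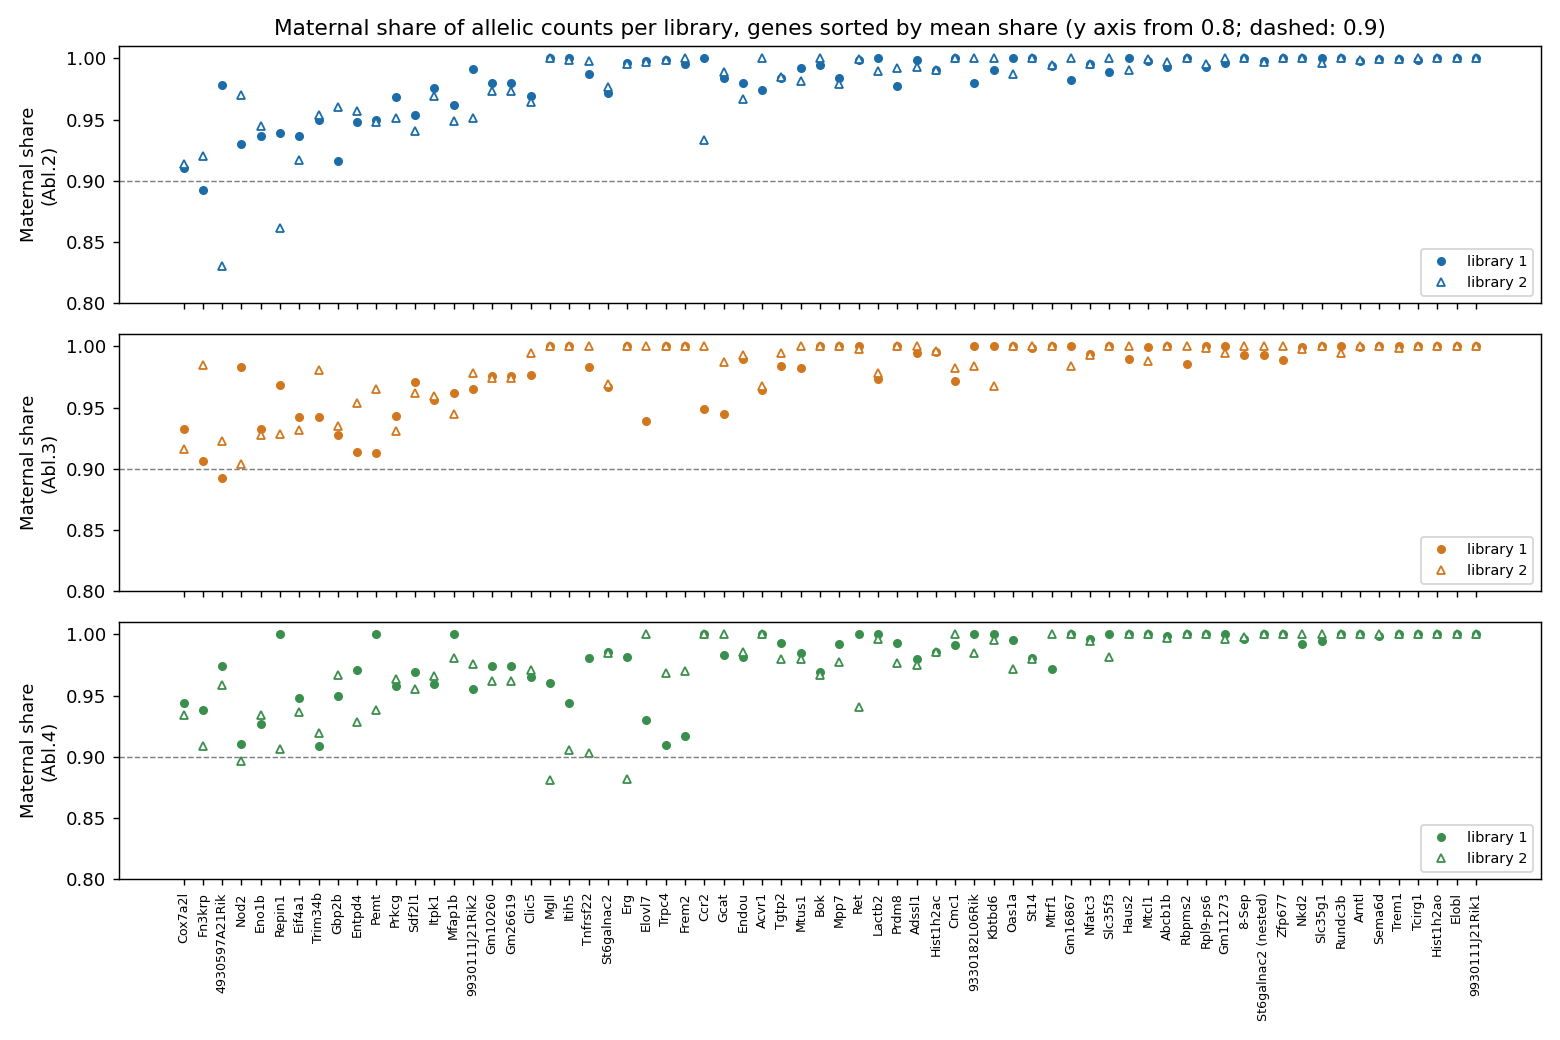
Maternal share of allelic counts (y axis, from 0.8 to 1, no unit) of each gene reported here (x axis, sorted by mean share), in 1 panel per line, with filled circles for library 1 and open triangles for library 2. The dashed line marks 0.9, and the largest gap between libraries of a line, 0.147, is that of 4930597A21Rik in Abl.2.

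Just inside the threshold, Repin1, a zinc finger gene, had 0.9003 in Abl.2, where library 1 gave 0.939 and library 2 gave 0.862. Nod2, a sensor of bacterial peptidoglycan, had 0.904 in Abl.4, from 56 and 58 counts. The non-coding gene 4930597A21Rik, the kinase gene Fn3krp and the respiratory chain gene Cox7a2l followed with lowest line shares of 0.905, 0.906 and 0.912. Just outside the threshold, Tuft1, Ehd3, Naip6, Zfp30 and Ovgp1 had lowest line shares of 0.899, 0.899, 0.898, 0.897 and 0.896. Among these 10 genes the counts of the least covered library ran from 24 for Ovgp1 to 1861 for Cox7a2l.

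The paternal counts that remained were set beside those of 2 chromosomes that were read almost wholly from the maternal allele. The X chromosome in the male line Abl.3 is of maternal origin, and its 222 covered genes had a median paternal share of 0.101%, with 0.617% at the 95th percentile. Of these X genes 2 were above 10%, and the highest was at 23.8%. The 69 genes had a median paternal share of 0.682% in Abl.3. Chromosome 4 in Abl.2 was read in the same way, since its 554 covered genes had a median paternal share of 0.198% with 1.15% at the 95th percentile. On chromosome 4 in Abl.2, however, 9 of the 554 genes were above 10% and the highest was at 98.6%, so not every gene of these chromosomes was free of paternal counts. In Abl.2 the 69 genes had a median of 0.601%. These shares chose the genes, so the medians are a description. In Abl.4, for which no such chromosome was used, the median paternal share of the 69 genes was 1.51%. Both libraries lacked paternal counts for 11 genes in Abl.2, for 19 in Abl.3 and for 15 in Abl.4. At the depth of most of these genes a count of 0 allows a paternal share above the X and chromosome 4 medians, so whether they lie below those medians is not resolved.

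**Figure D2:**
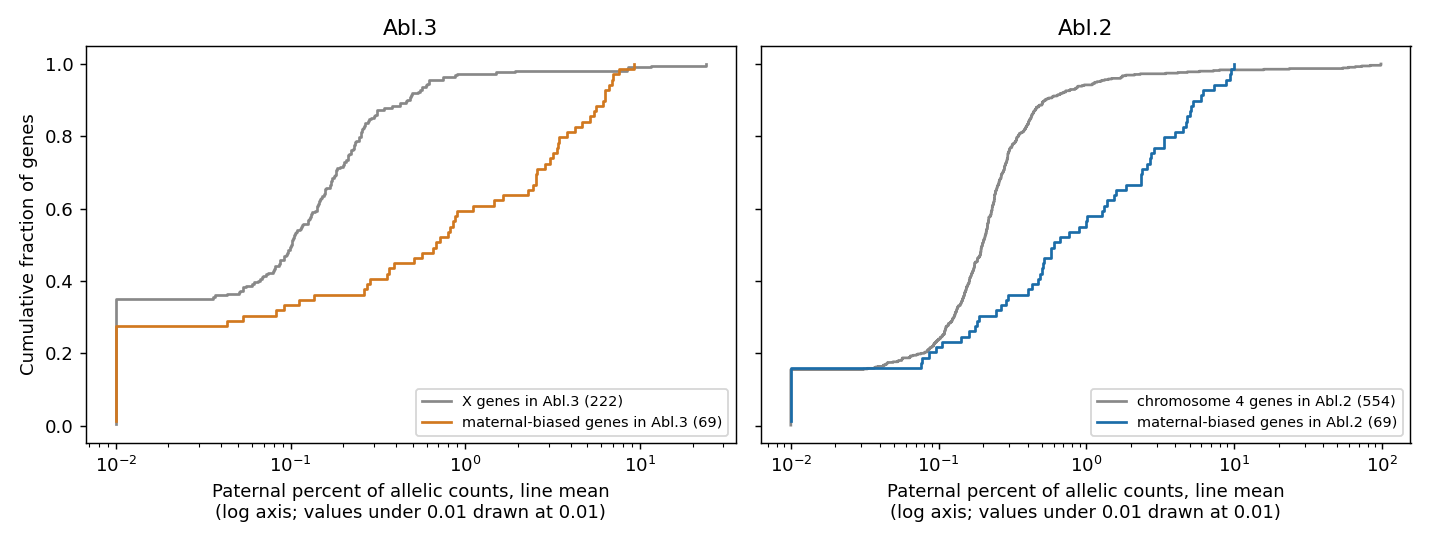
Cumulative fraction of genes (y axis) by paternal percent of allelic counts (x axis, log scale, line mean, values under 0.01 drawn at 0.01), for the 69 genes in colour and, in grey, for X genes of the male line Abl.3 (left) and chromosome 4 genes of Abl.2 (right). The coloured curves have medians of 0.682% and 0.601%, against 0.101% and 0.198% for the grey ones.

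Signalling and transcription genes made up 18 of the 69, and 7 of them were at 0.99 or more in all lines. Nfatc3 (chr8:106058840-106130537), a calcium-regulated transcription factor of lymphocytes, was the best covered of them. It gave 5716 maternal and 28 paternal counts, then 6953 and 34, in the Abl.2 libraries, 2676 and 17, then 2574 and 19, in Abl.3, and 3456 and 13, then 4061 and 23, in Abl.4. Its share was thus between 0.993 and 0.996 in all 6 libraries. The lowest limit of their 95% Wilson intervals was 0.989.

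Arntl (chr7:113207465-113314126), the BMAL1 gene and a core activator of the circadian clock, had 0 or 1 paternal counts in each library against 499 to 1157 maternal counts. Sema6d, a membrane-bound guidance ligand, likewise had 0 or 1 paternal counts in each library, although its maternal counts ran from 47 in an Abl.3 library to 1173 in an Abl.2 library. Mtcl1, a microtubule crosslinking protein, had 980 to 1386 maternal counts in the libraries of Abl.2 and Abl.3 and 36 and 58 in Abl.4. The rule asked for at least 0.9 in every line, so a high share in the lines with few counts was fixed by the choice of genes. Nkd2, an inhibitor of Wnt signalling, had at most 3 paternal counts in any library. Ret, a receptor tyrosine kinase, had shares of 0.999 in Abl.2 and Abl.3 and of 1 and 0.940 in the Abl.4 libraries, where the maternal counts were 96 and 63. Erg, an ETS family transcription factor, was at 0.996 in Abl.2 and 1 in Abl.3, and in Abl.4 its libraries read 0.982 and 0.882.

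Defence genes and surface receptors made up 11 of the 69. Symbols of multigene immune families, a list that covered guanylate-binding proteins, interferon-inducible GTPases, OAS enzymes, TRIM proteins and several receptor families, accounted for 4 of the 69, or 5.80%, against 60 of all covered genes, or 0.801%. The 4 were Gbp2b, Oas1a, Tgtp2 and Trim34b. The same number, 4, was found among the 69 genes that were paternal in all 3 lines. Trem1, an activating receptor known from myeloid cells, had 8 paternal counts over all 6 libraries, none of them in Abl.4, against 647 to 5123 maternal counts per library. Oas1a, which makes the 2-5A messenger that activates RNase L, had shares of 0.993, 1 and 0.984 in Abl.2, Abl.3 and Abl.4. Gbp2b had 0.938, 0.931 and 0.958, but in Abl.4 from 20 and 30 counts. Ccr2, a chemokine receptor gene on chromosome 9, had 0.967, 0.974 and 1, from 31 to 104 counts per library. Tnfrsf22, a decoy receptor for TRAIL, had 0.992, 0.991 and 0.942.

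A stretch of chromosome 11 (chr11:48946150-49064206) held 3 of the genes, all of the interferon-inducible GTPase family or its neighbourhood. From the left, 9930111J21Rik1 had 834 maternal and no paternal counts over the 6 libraries, which allows a paternal share of up to 0.360%. Next, 9930111J21Rik2 had line shares of 0.971, 0.971 and 0.966, and Tgtp2, an interferon-inducible GTPase, had 0.984 ± 0.00069, 0.989 ± 0.0077 and 0.986 ± 0.0094 (SD, n = 2) from 24629 counts. Genes between and beside them did not follow. Gm12185, which overlaps 9930111J21Rik1, was read from the paternal allele with maternal shares of 0.014, 0.040 and 0.028 in Abl.2, Abl.3 and Abl.4. Tgtp1 had 0.261, 0.263 and 0.392, and Gm5431, 43936 bases to the other side of 9930111J21Rik1, had 0.067, 0.226 and 0.242. Olfr56, an olfactory receptor gene whose annotated span overlaps all 3, had 0.559, 0.445 and 0.544. Outside the stretch, Ifi47 had 0.518, 0.394 and 0.508, and Irgm1, a regulator of the family, had 0.794, 0.733 and 0.745.

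Tgtp2 and Tgtp1 are near-identical copies. Their coding sequences differed at 4 of 1245 bases, and 86.6% of the 50-base words of Tgtp2 transcripts were also found in another gene. The coding windows below, of 90 bases in GRCm38 coordinates from GENCODE M21 transcripts, lie at chr11:49058968-49059057 (minus strand) and chr11:48987101-48987190 (minus strand) and are shown because they hold 2 of the 4 differing bases, which are in capitals. Reads without such a base cannot be assigned to either copy by sequence.
Tgtp2: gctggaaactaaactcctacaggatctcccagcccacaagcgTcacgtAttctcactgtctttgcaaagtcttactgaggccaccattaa
Tgtp1: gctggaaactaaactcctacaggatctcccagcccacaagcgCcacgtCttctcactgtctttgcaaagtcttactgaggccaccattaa
Between them, the copies had different allele profiles and different depths in the allele table. Tgtp1 had 2617 to 39969 counts per library and Tgtp2 had 933 to 11510. How the deposited counting treated reads that match both copies is not given in the sources used here, so the shares and the levels of this pair are uncertain.

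Promoters of the 69 genes were searched for GAAANNGAAA and its reverse complement TTTCNNTTTC, a core of the element through which interferon-activated factors act. The windows ran from 250 bases before to 50 bases after the gene start, from RefSeq on GRCm38.p6, and 46 of the 69 genes were matched by symbol, with 58 windows. The motif was present in 1131 of 32851 windows, or 3.44%, and in 5 of the 58 windows, or 8.62%, which are those of Oas1a, Gbp2b, Tgtp2, 9930111J21Rik1 and Tcirg1. The difference between these shares was not tested. The 4 windows below are shown because they allow the motif to be compared between maternal genes and the copy Tgtp1, with the matched letters in capitals. They lie at chr5:120907476-120907775 (minus strand), chr3:142594597-142594896 (plus strand), chr11:49064163-49064462 (minus strand) and chr11:48992197-48992496 (minus strand).
Oas1a: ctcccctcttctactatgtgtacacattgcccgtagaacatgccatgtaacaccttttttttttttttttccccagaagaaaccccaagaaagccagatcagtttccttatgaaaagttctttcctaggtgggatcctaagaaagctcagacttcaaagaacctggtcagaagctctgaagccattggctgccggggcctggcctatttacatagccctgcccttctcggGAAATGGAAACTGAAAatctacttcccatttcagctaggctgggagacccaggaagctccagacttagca
Gbp2b: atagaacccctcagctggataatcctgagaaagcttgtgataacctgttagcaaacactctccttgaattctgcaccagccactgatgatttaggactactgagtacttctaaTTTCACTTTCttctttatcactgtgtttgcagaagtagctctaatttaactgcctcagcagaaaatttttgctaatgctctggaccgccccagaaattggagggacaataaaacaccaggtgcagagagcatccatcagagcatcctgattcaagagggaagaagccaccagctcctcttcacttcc
Tgtp2: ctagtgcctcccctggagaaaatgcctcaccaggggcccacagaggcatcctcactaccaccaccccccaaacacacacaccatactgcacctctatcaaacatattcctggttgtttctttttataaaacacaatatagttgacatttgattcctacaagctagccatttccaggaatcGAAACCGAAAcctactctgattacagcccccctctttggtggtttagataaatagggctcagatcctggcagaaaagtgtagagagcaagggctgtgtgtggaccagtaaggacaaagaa
Tgtp1: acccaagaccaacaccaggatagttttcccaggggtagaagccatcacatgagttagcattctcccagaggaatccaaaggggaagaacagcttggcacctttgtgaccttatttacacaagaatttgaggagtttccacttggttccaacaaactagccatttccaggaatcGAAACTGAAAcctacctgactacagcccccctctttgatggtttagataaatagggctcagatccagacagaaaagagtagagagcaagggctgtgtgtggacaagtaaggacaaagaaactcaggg
In Oas1a the capitals are 2 matches that overlap. Tgtp2 and Tgtp1 each held 1 match, GAAACCGAAA and GAAACTGAAA. The windows are of the reference genome and show neither strain's own sequence. A match describes the letters only.

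Enzymes, transporters and channels made up 22 of the 69. St6galnac2 (chr11:116675303-116694868), a sialyltransferase of the Golgi, had 26569 counts and shares of 0.974 ± 0.0035, 0.968 ± 0.0019 and 0.985 ± 0.00053 (SD, n = 2). A second entry of the same symbol is nested in it and had 0.997, 0.996 and 1. Tcirg1, a subunit of the vacuolar proton pump, had 1 paternal count among 3251 in the 6 libraries. Adssl1, an adenylosuccinate synthase, had 0.996 ± 0.0036, 0.997 ± 0.0039 and 0.977 ± 0.0037 (SD, n = 2). Itpk1, an inositol phosphate kinase, had 0.973 ± 0.0045, 0.958 ± 0.0027 and 0.962 ± 0.0045 (SD, n = 2). Cox7a2l, a factor of respiratory chain supercomplexes, had 0.912 ± 0.0018, 0.924 ± 0.011 and 0.939 ± 0.0066 (SD, n = 2), with 113 to 224 paternal counts in every library. Abcb1b, a multidrug efflux pump, and its neighbours Rundc3b and 9330182L06Rik on chromosome 5 had line shares from 0.99 to 1. Trpc4, a cation channel, and Frem2, an extracellular matrix protein gene, lie 498680 bases apart on chromosome 3. They had 0.999 and 0.998 in Abl.2, 1 and 1 in Abl.3 and 0.939 and 0.943 in Abl.4, where the Frem2 share rests on 24 and 67 counts with 2 paternal counts in each library. Mgll, a lipase of monoacylglycerols, and Itih5, an inter-alpha-trypsin inhibitor chain, read 0.921 and 0.925 in Abl.4 and 0.999 or 1 in the other lines. Mgll rests on few counts, with 27 and 37 in the Abl.2 libraries, none of them paternal, and with shares of 0.960 from 101 counts and 0.881 from 42 in the Abl.4 libraries. The lower 95% Wilson limits of Mgll in Abl.2, 0.875 and 0.906, lie below its mean in Abl.4. Itih5 had 32 and 49 paternal counts in the Abl.4 libraries against at most 1 in the others.

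Another 10 genes were histone genes, relatives of housekeeping genes or members of other sequence families, and 9 of these shared at least 10% of their 50-base words with a gene elsewhere. Such sharing was more frequent in the whole set than among all covered genes. At least 10% of the words were shared for 23 of the 69 genes, or 33.3%, against 10.9% of all covered genes and 36.2% of the genes that were paternal in all lines. At least 50% were shared for 13 genes, or 18.8%, against 3.26% of all covered genes and 21.7% of the paternal genes. Genes with a Gm, Rik or -ps symbol made up 13.0% of the set, 20.3% of the paternal genes and 4.48% of all covered genes. Whether reads of such copies entered the counts was not tested, and these shares are a description of the set.

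For 14 of the 23 genes the gene sharing most words was itself covered, and its maternal share could be set beside that of the member. Apart from the 9930111J21Rik genes, which are each other's copy, and the nested St6galnac2 entry, the copies lay between 0.209, for Entpd4b in Abl.4, and 0.602, for Kbtbd7 in Abl.4. The exception was Eno1 in Abl.2, at 0.998. Elobl, a relative of an elongin B gene, had no paternal count among 162, which allows a paternal share of up to 1.85%, and the gene sharing most of its words, Coil, had 0.529, 0.513 and 0.513. Rpl9-ps6, a relative of a large ribosomal subunit protein gene, had 0.994, 0.999 and 1, and Rpl9 had 0.510, 0.448 and 0.502. Gm10260 had 0.976, 0.975 and 0.968, and Rps18, the ribosomal protein gene it resembles, had 0.510, 0.543 and 0.508. Gm11273 had at least 0.997 in each line, whereas Cox5b, a cytochrome c oxidase subunit gene, had 0.504, 0.430 and 0.521. Mfap1b and Mfap1a have identical coding sequences in the annotation and read 0.955, 0.954 and 0.9904 against 0.472, 0.474 and 0.426. Trim34b had 0.952, 0.962 and 0.914 and Trim34a had 0.449, 0.473 and 0.392. Entpd4 and Entpd4b, also identical in their coding sequences, had 0.953, 0.934 and 0.9498 against 0.272, 0.284 and 0.209.

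The expression of the copies was far higher in several of these pairs. Rpl9 had a mean of 1460 TPM and Rpl9-ps6 had 1.8, Rps18 had 2806 and Gm10260 had 170, and Cox5b had 543 and Gm11273 had 1.81. Few bases separate them. The windows below, chosen to hold differing bases, are 90 bases of coding sequence at chr13:97760206-97760295 (minus strand), chr17:33952221-33952310 (minus strand), chr19:32466204-32466293 (minus strand) and chr5:65389521-65389610 (minus strand), with the bases that differ within a pair in capitals.
Gm10260: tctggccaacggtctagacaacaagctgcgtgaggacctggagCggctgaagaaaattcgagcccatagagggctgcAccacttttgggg
Rps18: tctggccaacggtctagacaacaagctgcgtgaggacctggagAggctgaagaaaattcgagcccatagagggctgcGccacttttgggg
Rpl9-ps6: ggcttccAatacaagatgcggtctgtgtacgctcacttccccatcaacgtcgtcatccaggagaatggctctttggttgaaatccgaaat
Rpl9: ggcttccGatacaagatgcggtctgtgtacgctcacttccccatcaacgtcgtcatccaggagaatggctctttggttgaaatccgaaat
Over the full coding sequences, Gm10260 and Rps18 differed at 4 of 456 bases and Rpl9-ps6 and Rpl9 at 1 of 576. How much of the counts of each such gene came from reads of its copy was not tested.

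**Figure D3:**
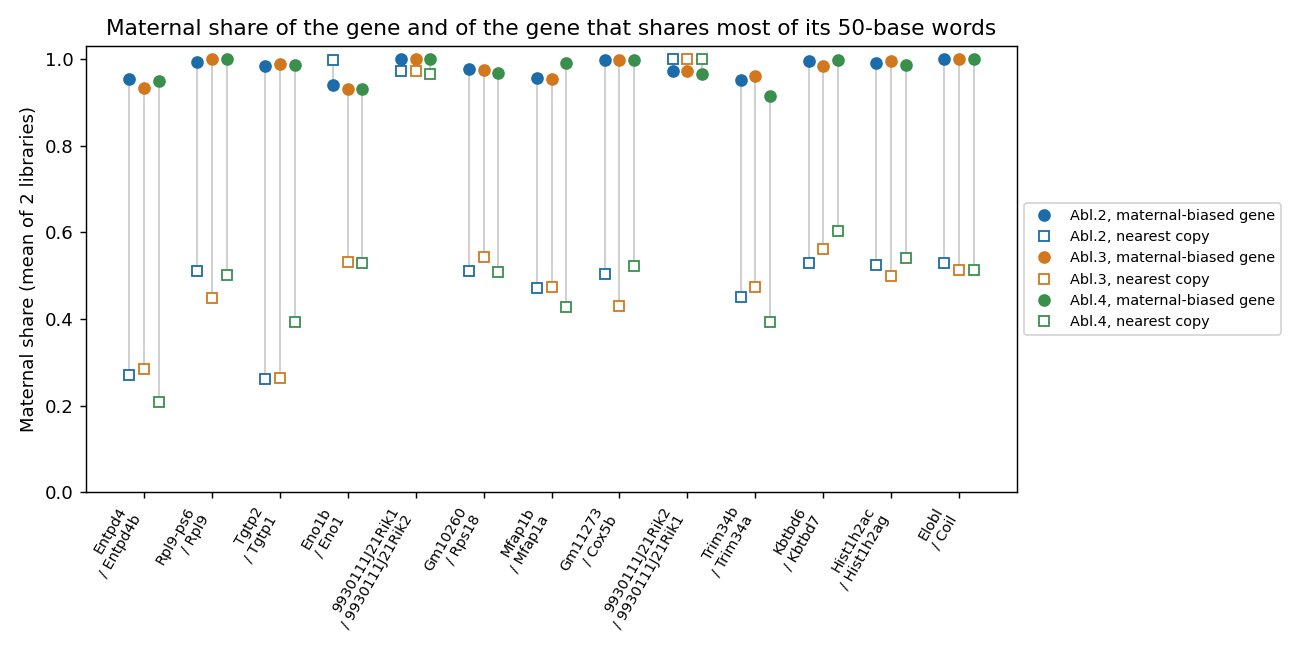
Maternal share (y axis, from 0 to 1, mean of 2 libraries) of maternal-biased genes (filled circles) and of the gene that shares most of their 50-base words (open squares), in each line, for pairs in which the copy was covered and does not overlap the member. Most squares lie near 0.5, and Eno1 in Abl.2, at 0.998, lies on chromosome 4.

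Eno1b (chr18:48045335-48048378), a relative of the glycolytic enolase gene, had 38761 counts and shares of 0.941 ± 0.006, 0.930 ± 0.0032 and 0.931 ± 0.0049 (SD, n = 2). Eno1 lies on chromosome 4, and it read 0.998 in Abl.2 but 0.531 and 0.529 in the other lines. Hist1h2ac, an H2A histone gene, had 102607 counts and shares of 0.9901, 0.996 and 0.986, and Hist1h2ao had 47557 counts of which 1 was paternal. Hist1h2ao and Hist1h2ap have identical coding sequences of 390 bases in the annotation. Hist1h2ap shared 93.5% of the words of Hist1h2ao and was not in the allele table, so no share could be set beside it. The counts of Hist1h2ao hardly varied between libraries, and whether the deposited counting limited the depth at a position is not given in the sources used here. The counts of Hist1h2ac and Hist1h2ao stood apart from the abundance table. Hist1h2ac was listed at 0.88 to 4.95 TPM and Hist1h2ao at 0 TPM in all libraries, as were Entpd4 and Gm16867, which had 489 and 466 allelic counts. Entpd4 and Gm16867 overlap and had the same maternal count in every library, and Gm10260 and the non-coding gene Gm26619, which also overlap, had identical counts in every library, so these pairs are not independent entries. Eif4a1, the RNA helicase of translation initiation, showed the reverse: its mean abundance was 675 TPM and its allelic counts were 285 to 678 per library, with shares of 0.927, 0.937 and 0.942.

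The remaining 8 genes included Sdf2l1, an endoplasmic reticulum chaperone component, with 0.947, 0.967 and 0.962, and Haus2, an augmin subunit of the spindle, with 0.995, 0.995 and 1. The septin gene listed as 8-Sep had at least 0.996 in each line. Over all 69 genes, 67 were annotated as protein-coding, 97.1% against 98.5% of the covered genes, and 38 overlapped another annotated gene, 55.1% against 59.3%.

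None of the 69 was on the list of imprinted genes. Tnfrsf22, however, lies 39101 bases from Osbpl5 and 85700 bases from Nap1l4, which are both on the list. Osbpl5 had 0.512, 0.857 and 0.491, with 21 counts in its least covered library, and Nap1l4 had 0.518, 0.512 and 0.4995. Tnfrsf26, 6084 bases from Tnfrsf22, had 0.856, 0.855 and 0.693, and Cars, 34716 bases from Tnfrsf22, had 0.481, 0.509 and 0.485. Whether imprinting has a part in the share of Tnfrsf22 was not tested. Of 26 maternally expressed imprinted genes, 23 were in the allele table and 7 were covered. Those 7 were not maternal in all lines. Ube3a, for example, had 0.461, 0.472 and 0.446, and Cd81 had 0.472, 0.420 and 0.446. The list takes no account of the tissue in which each gene is imprinted. Igf2r, the classical maternally expressed gene, read 1, 0.996 and 0.978 but did not reach 20 counts in every library. Its least covered library had 0 counts, so at least 1 of these line shares rests on a single library. Of 24 paternally expressed genes, 3 were covered, and they differed. Zrsr1 was read from the paternal allele with maternal shares of 0, 0 and 0.019, Impact had 0.0016, 0.109 and 0.137, and Inpp5f was read from both alleles with 0.525, 0.591 and 0.490.

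Genes beside the 69 were mostly read from both alleles. Within 100 kb, 173 other genes were covered, next to 54 of the 69. Their mean maternal share had a median of 0.508 with quartiles of 0.460 and 0.569, against 0.499 with quartiles of 0.457 and 0.540 for all covered genes. Shares between 0.3 and 0.7 in all lines were found for 126 neighbours, or 72.8%, and for 81.2% of all covered genes. Shares of 0.7 or more in all lines were found for 9 neighbours, or 5.20%, and for 2.76% of all covered genes. Next to Nfatc3, the 6 covered neighbours had line shares from 0.309 to 0.641. Btbd10, which lies 1500 bases from Arntl, had 0.601, 0.627 and 0.589. Inf2, 4488 bases from Adssl1, had 0.932, 0.969 and 0.831, whereas Siva1, 3319 bases from it, had 0.533, 0.533 and 0.549. Treml2, 52574 bases from Trem1, had 0.762, 0.748 and 0.721. Trim5, 41377 bases from Trim34b, was at 0 in all lines. H1f0, 370 bases from Gcat, had 0.047, 0.702 and 0.997 in Abl.2, Abl.3 and Abl.4, whereas Gcat itself had 0.986, 0.966 and 0.991.

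**Figure D4:**
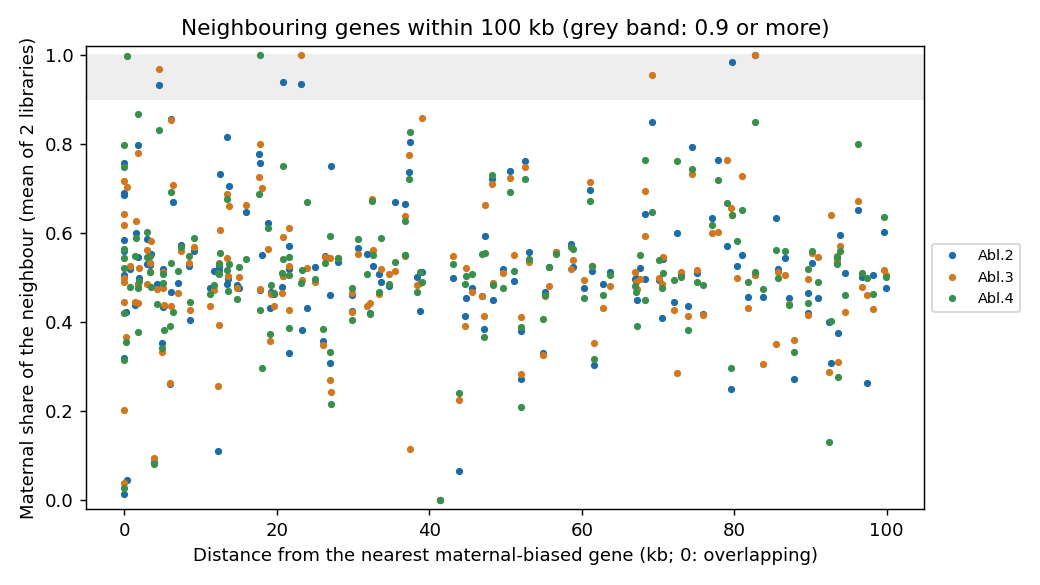
Maternal share (y axis, from 0 to 1, mean of 2 libraries) of 173 covered genes by their distance in kb (x axis) from the nearest of the 69 genes, with 1 point per line in the colour of the line. The median of the mean shares is 0.508, and few points reach the grey band at 0.9 or more.

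All 17 autosomes considered held at least 1 of the genes, from 2 to 11 each. Chromosome 11 had 11 of 740 covered genes and chromosome 13 had 7 of 337. Within 500 kb of another member lay 20 genes, in 9 runs of 2 or 3, and 49 stood alone.

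Total abundance differed between the lines for many of the genes. The choice used it only through the minimum of 20 allelic counts per library, which favours expressed genes. All lines were compared in a single limma fit on log2(TPM + 1), which took in 11003 genes whose mean reached 1 TPM, and 62 of the 69 were among these. In these bulk samples, fewer cells with a transcript and less RNA per cell cannot be told apart. Between Abl.2 and Abl.3, 30 of the 62 passed an adjusted p of 0.05 by limma with Benjamini-Hochberg adjustment, 48.4% against 39.8% of all genes. Abl.2 was the higher line for 21 of these and the lower for 9, against 25.9% and 14.0% of all genes. Between Abl.2 and Abl.4, 25 passed, 40.3% against 33.5%. Abl.2 was the higher line for 12 and the lower for 13, against 15.0% and 18.4% of all genes. Between Abl.3 and Abl.4, 30 passed, 48.4% against 38.1%. Abl.3 was the higher line for 8 and the lower for 22, against 11.3% and 26.8% of all genes. Among the 7046 tested genes that met the same count minimum, 38.2%, 30.8% and 37.5% passed in the 3 comparisons. The difference between the members and these backgrounds was not tested, and the comparisons share their libraries.

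With a log2 difference of at least 1 as a further condition, 16, 16 and 14 of the 62 passed, or 25.8%, 25.8% and 22.6%, against 10.5%, 10.1% and 9.47% of all genes and 7.25%, 6.53% and 6.60% of the genes that met the count minimum. This difference was not tested, and the members were of lower abundance, with a median of 4.10 TPM against 28.1 TPM for all covered genes. Some pair of lines differed by at least 1 on the log2 scale for 43.5% of the 62 and for 18.9% of all genes. The median of the log2 differences over all genes was 0.10, -0.03 and -0.15 in the 3 comparisons, and over the members it was 0.20, 0.02 and -0.27. The split by direction depended on the scaling. In Abl.2 against Abl.3 it was 17 higher and 10 lower members on quantile-normalised values, and 17 and 13 on values centred on the median gene. In Abl.3 against Abl.4 it was 13 and 13, and 15 and 14. For all genes that passed, the part with the higher level in Abl.2 than in Abl.3 went from 65.0% to 51.4% and 40.2% under these scalings, and the part with the higher level in Abl.3 than in Abl.4 from 29.8% to 52.0% and 64.0%. Single libraries also mattered, since leaving out 1 leaves a line with a single library. Without Abl.2 library 1, Abl.2 library 2 or Abl.3 library 1, fewer members and fewer of all genes passed between Abl.2 and Abl.3. The median log2 difference of the members was then 0.25, 0.13 and 0.17, beside 0.10, 0.09 and 0.11 over all genes. Without Abl.2 library 2, the share of tested members that passed was close to the share of all genes. Without Abl.3 library 1 or library 2, fewer members and fewer of all genes also passed between Abl.3 and Abl.4. There the median of the members was -0.34 and -0.26, beside -0.15 and -0.14 over all genes.

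Signalling genes passed in at least 1 comparison in 14 of 18 cases, where 59.7% of all genes did. Sema6d was at 8.6 and 8.7 TPM in Abl.2, 0.72 and 0.57 in Abl.3 and 6.83 and 8.45 in Abl.4. Abl.3 was the low line without overlap, by 2.55 (SE 0.155, limma adjusted p = 7.17e-05) against Abl.2 and by 2.39 (SE 0.155, limma adjusted p = 0.000118) against Abl.4 on the log2(TPM + 1) scale. Mtcl1 was at 6.8 and 8.87 TPM in Abl.2, 7.07 and 8.46 in Abl.3, and 0.3 and 0.32 in Abl.4. Abl.4 was the low line, with Abl.2 higher by 2.74 (SE 0.176, limma adjusted p = 9.8e-05). Ret was also lowest in Abl.4, at 0.51 and 0.33 TPM, against 4.66 and 4.02 in Abl.2 and 2.88 and 2.74 in Abl.3. Abl.3 exceeded Abl.4 in Ret by a log2 difference of 1.43 (SE 0.168, limma adjusted p = 0.0013). Prdm8, a histone methyltransferase family gene, was highest in Abl.4, at 6.29 and 4.91 TPM, against 1.46 and 0.96 in Abl.2 and 0.41 and 0.22 in Abl.3. It was lower in Abl.3 than in Abl.4 by a log2 difference of -2.32 (SE 0.209, limma adjusted p = 0.000456).

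Arntl and Nkd2 followed other patterns. Arntl was at 14.2 and 14.3 TPM in Abl.2, 33.6 and 31.4 in Abl.3 and 27.5 and 29.2 in Abl.4, so Abl.2 was the low line. Its log2 difference of Abl.2 from Abl.3 was -1.13 (SE 0.0927, limma adjusted p = 0.000263). Nkd2 was at 7.4 and 7.81 TPM in Abl.3 and between 1.5 and 2.85 TPM in the other lines, and was lower in Abl.2 than in Abl.3 by -1.20 (SE 0.190, limma adjusted p = 0.00367). Nfatc3 was highest in Abl.2, with 57.0 and 61.1 TPM, against 25.4 and 28.3 in Abl.3 and 39.3 and 48.6 in Abl.4. Its log2 difference of Abl.2 from Abl.3 was 1.11 (SE 0.12, limma adjusted p = 0.000928).

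Defence genes and surface receptors whose abundance differed between Abl.2 and another line were higher in Abl.2. Of 10 tested, 6 were higher in Abl.2 than in Abl.3, where 25.9% of all genes were, and none was lower. Against Abl.4, 3 were higher in Abl.2, where 15.0% of all genes were, and none was lower, where 18.4% were. Tgtp2 was at 33.2 and 41.9 TPM in Abl.2, 7.36 and 7.69 in Abl.3 and 4.4 and 4.1 in Abl.4. Its log2 difference of Abl.2 from Abl.4 was 2.87 (SE 0.140, limma adjusted p = 3.38e-05). Oas1a was at 6.97 and 7.91 TPM in Abl.2 and between 1.65 and 2.46 TPM in the other 4 libraries. Trem1 was at 10.3 and 11.3 TPM in Abl.2 and between 1.72 and 3.6 TPM in the other 4, and it is known from myeloid cells. Myeloid markers summed to 161 to 196 TPM in Abl.2, 81.0 to 103 in Abl.3 and 80.5 to 92.9 in Abl.4, with 2 of 6 above 1 TPM in all libraries and Adgre1 at 0. Lyz2 made up most of these sums. Itgam and Cd68 did not share its order, since Itgam was at 6.89 and 6.74 TPM in Abl.4 against 0.51 and 0.35 in Abl.2, and Cd68 was at 5.91 and 6.02 in Abl.3 against 2.44 and 3.23 in Abl.2. The part of these markers in the result was not tested. Gbp2b, at 4.06 to 6.04 TPM, did not pass in any comparison.

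Enzymes, transporters and channels passed in at least 1 comparison in 15 of 20 cases, beside the 59.7% of all genes. Endou, an endoribonuclease gene, was at 2.81 and 2.98 TPM in Abl.2, 12.3 and 12.4 in Abl.3 and 18.4 and 17.4 in Abl.4, and was lower in Abl.2 than in Abl.3 by -1.78 (SE 0.112, limma adjusted p = 8.29e-05). Gcat, an enzyme of threonine breakdown, was at 3.17 and 3.15 TPM in Abl.2 against 26.2 and 17.6 in Abl.4. Adssl1 was at 14.6 and 11.3 TPM in Abl.2 against 68.7 and 64 in Abl.4. Their log2 differences of Abl.2 from Abl.4 were -2.43 (SE 0.217) and -2.28 (SE 0.133), both past the limma adjusted p of 0.05. Trpc4 was highest in Abl.2, at 12.2 and 11.8 TPM, and lowest in Abl.4, at 2.04 and 1.93. Mtrf1, a mitochondrial translation release factor, was at 4.59 and 4.2 TPM in Abl.2 and 0.34 and 0.71 in Abl.3, a log2 difference of 1.83 (SE 0.201, limma adjusted p = 0.000856). Tcirg1, at 195 to 260 TPM, Abcb1b, at 3.99 to 6.01 TPM, and St14, at 9.87 to 13.7 TPM, did not pass in any comparison.

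Of the histone genes, relatives of housekeeping genes and members of other sequence families, 3 of 8 tested passed in at least 1 comparison, beside the 59.7% of all genes. Hist1h2ac was higher in Abl.4, at 4.95 and 4.75 TPM, than in Abl.2, at 1.47 and 1.88, and Abl.3, at 0.88 and 0.89. Its allelic counts did not show a difference of that size, with 19239 and 19066 in Abl.4, 15660 and 17340 in Abl.2 and 13712 and 17590 in Abl.3. Eno1b was at 758 and 702 TPM in Abl.2, 999 and 922 in Abl.3 and 993 and 797 in Abl.4. Among the remaining genes, which belong to none of these groups, 3 of 6 tested passed in at least 1 comparison. Of these, the non-coding gene 4930597A21Rik differed widely, at 23.2 and 29.9 TPM in Abl.4 and between 3.03 and 3.84 TPM in the other 4 libraries. Its log2 difference of Abl.2 from Abl.4 was -2.72 (SE 0.168, limma adjusted p = 8.21e-05).

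**Figure D5:**
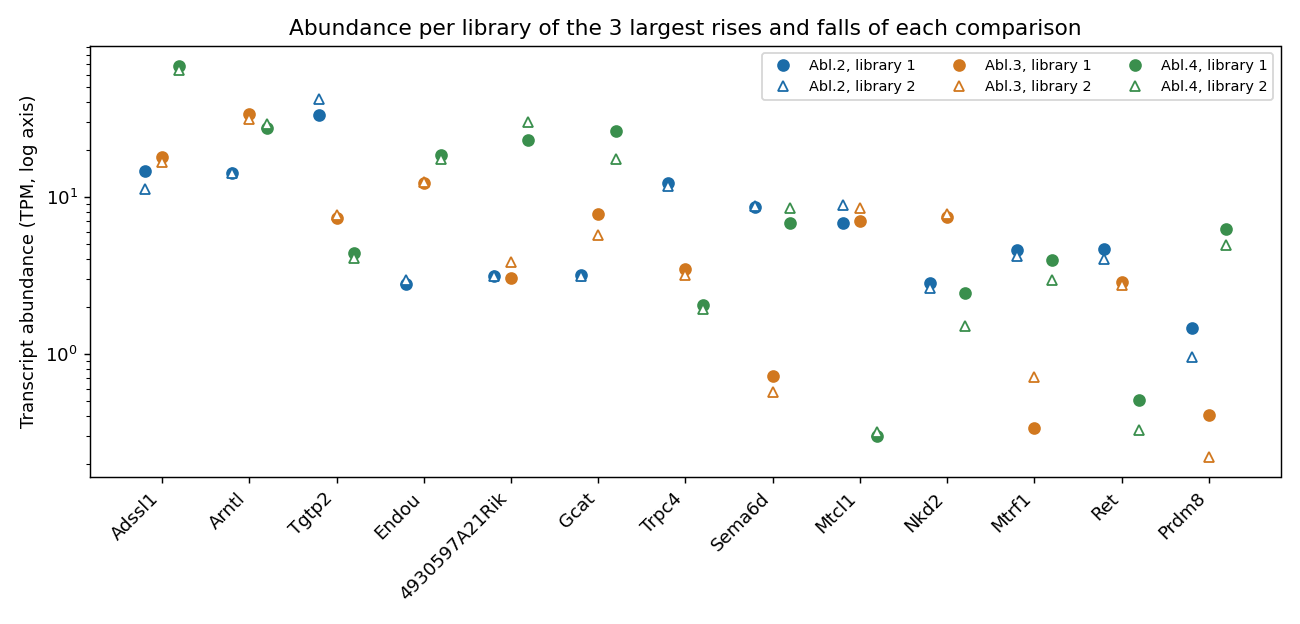
Abundance in TPM (y axis, log scale) in each library of the 13 genes that were among the 3 largest rises or falls of a comparison (x axis), with filled circles for library 1, open triangles for library 2 and a colour per line. The lines lie further apart than the libraries of a line for genes such as Mtcl1, with 0.3 and 0.32 TPM in Abl.4 against 6.8 to 8.87 in the others.

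Over all 62 genes tested, 21 passed in no comparison, 6 in 1, 26 in 2 and 9 in all 3, against 40.3%, 16.7%, 34.3% and 8.67% of all genes for the same counts. As a set the 69 genes were of low abundance. Their median was 4.10 TPM, against 4.83 for the genes that were paternal in all lines and 28.1 for all covered genes, with 18 of them at 10 TPM or more and 5 at 100 or more. These 5 were Eno1b, Eif4a1, Tcirg1, Gm10260 and Sdf2l1.

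In the authors' deposited table of allelic estimates, all 69 genes were listed and 57 had an estimate in all 3 lines. An estimate of at least 0.9 in all lines was given for 56 of these in the authors' deposited table, and a lower confidence limit of at least 0.9 in all lines for 18. The lowest lower limit in the authors' deposited table was 0.46, for Nod2 in Abl.4.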

How the data were processed

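RNA of 3 clonal lines was measured in 6 libraries, 2 library preparation replicates per line, made with the SMARTseq v4 kit per the labels' protocols. Maternal and paternal read counts per gene were deposited by the authors for each library as whole numbers. TPM values per gene and library were deposited by the authors and keep no depth. Line estimates of the maternal fraction with confidence limits, averaged over replicates, were deposited by the authors and are used here only as the authors' values. The submitters' processing notes name STAR 2.5.4a, SAMtools, GATK and DESeq2, and the builds GRCm38, GRCh37 and mm10. The treatment of strand and of reads that match several places is not given in the sources used here. How reads shared by overlapping or near-identical genes were assigned is therefore unknown, and the values of such genes are uncertain.

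Shares were computed from the deposited counts at a coverage minimum of 20, with 95% Wilson intervals for single libraries. Intervals, and the limit of 3 counts for a count of 0, cover counting error only. The members and the gene lists were chosen with earlier results of these data known, and the role groups after the names of the members were seen. Abundance was compared with limma 3.58.1 (lmFit, eBayes with trend, R 4.3.3) on log2(TPM + 1) over genes whose mean reached 1 TPM, with 3 residual degrees of freedom and Benjamini-Hochberg adjustment over all genes at 0.05. A log2 difference on this scale understates the change of low genes. Words of 50 bases were compared between all GENCODE M21 transcripts, the release with the same start and end as 98.2% of the deposited genes. Named genes were the 12 with most allelic counts, the 5 with the largest difference between line shares, the 5 with the lowest line share, the 3 largest rises and falls in abundance per comparison, members within 500 kb of another, members on the gene family lists, and the 8 protein-coding members with the highest mean TPM. Others are examples of a group, chosen after their values were seen. Alternatives were other coverage minimums, thresholds, scalings and pseudocounts, edgeR 4.0.16 and DESeq2 1.42.0 on summed counts, a replicate block, and libraries left out. Values of 1 member are not reported here; it is included in the counts over the set.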

Additional observations from a re-analysis of the deposited data

How the results depend on the processing

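The number of genes in the set followed the rule. It was 40 with a coverage minimum of 100, 120 with a share threshold of 0.8 and 22 with 0.99. Leaving out single libraries gave 69 to 72. Leaving out replicate 1 or 2 of every line gave 76 and 77, and the other coverage minimums, thresholds, scalings and estimates tried gave 50 to 80. With 2 libraries a line, leaving 1 out keeps a share within 1 SD by construction, which says nothing of stability. For the abundance of the members, leaving out single libraries gave 14 to 32 (Abl.2 against Abl.3), 18 to 23 (Abl.2 against Abl.4) and 16 to 26 (Abl.3 against Abl.4) members passing. For all genes it gave 2529 to 4565, 2040 to 3269 and 2336 to 3659, since a line is then left with 1 library whose spread is assumed to be that of the others. On summed allelic counts, edgeR called 39, 34 and 32 of 69 members, or 56.5%, 49.3% and 46.4%, against 40.4%, 37.2% and 36.9% of all genes. DESeq2 called 37, 32 and 30, or 53.6%, 46.4% and 43.5%, against 39.8%, 36.9% and 36.4% of all genes. A log2 difference of at least 1, a condition added after the data were seen, left 16, 16 and 14 members and 1160, 1107 and 1042 genes. Among 507 alternative values of 39 named abundance differences, 27 lost and 7 gained the adjusted p of 0.05. No difference that passed in the main fit or in the alternative changed sign. Changes of sign among differences that passed in neither were not counted. The labels do not say that a replicate number marks a shared batch. A fit with the replicate block called 31, 29 and 31 members and 5213, 4608 and 5184 genes. These were 50%, 46.8% and 50% of the tested members, against 47.4%, 41.9% and 47.1% of all genes. In each comparison the members thus lay closer to all genes than in the main fit. Same-numbered deviations correlated at 0.104, 0.187 and 0.161 across genes, above 0.1 for each pair of lines. With 2 numbers a line, this does not settle whether the numbers pair the libraries. Genes with 20 to 50 counts in a library allow no finer statement than their intervals.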

Other observations

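The allelic counts of some highly covered genes hardly varied between libraries. Hist1h2ao had 7986, 7955, 7966, 7917, 7946 and 7787 counts in the 2 libraries each of Abl.2, Abl.3 and Abl.4, while the libraries' totals ran from 18362319 to 26881211. Rps18, the copy of Gm10260, had 15558 to 16235 counts and Eno1, the copy of Eno1b, had 82855 to 85807. Hist1h2ac had 13712 to 19239 counts, and Nfatc3, with 2593 to 6987, varied with its abundance of 25.4 to 61.1 TPM. For Hist1h2ao, Rps18 and Eno1 the counts are therefore a poor measure of depth. Whether the deposited counting limited the depth at a position is not given in the sources used here, and the cause was not tested.

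Trim5, 41377 bases from the maternal gene Trim34b, was the counterpart in the same family, with no maternal count in any line. On its far side from Trim34b lies Trim34a, with shares of 0.449, 0.473 and 0.392. Beyond Trim34b lie Trim12c, with 0.547, 0.442 and 0.378, and Trim30a, with 0.445, 0.426 and 0.494.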
